A study of Mus musculus with 56 samples.

Results

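Medullary thymic epithelial cells (mTECs) taken 16 to 28 days after parturition were compared with mTECs of non-pregnant controls (NPC). The comparison held 7 of the 56 RNA-seq libraries of the series, chosen by their labelled cell type and time point. The late group was 4 libraries, 1 mouse each at D16, D20, D24 and D28, and the control group was 3 libraries from 3 NPC mice. All mice were B6.SJL females (B.6SJL-Ptprca Pep3b/BoyJ-CD45.1). The late mice had been mated with BALB/cJ males and lost their pups at birth, so that they did not lactate, whereas the NPC mice were labelled age-matched, with no age in the labels. mTECs were sorted as EpCAM+CD45- cells that bound the lectin UEA1, after enzymatic digestion of the thymic stroma. D16 to D28 is the late phase of postpartum regeneration as the study divides it, and the comparison asks how far the mTEC transcriptome of that phase differed from that of mice without a pregnancy. Because each late day had 1 mouse, the spread within the late group includes any difference between days.

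mTECs line the inner zone of the thymus and display self antigens to maturing T cells. Mature mTECs use the regulators AIRE and FEZF2 to transcribe genes that are otherwise confined to single peripheral tissues, and they carry MHC class II and the costimulatory ligands CD80 and CD86 and the receptor CD40. Cortical TECs (cTECs) sit in the outer zone, attract and instruct early thymocytes with CCL25, CXCL12 and DLL4, and generate peptides with the thymoproteasome subunit PSMB11 and the protease PRSS16. FOXN1 is the transcription factor on which both epithelial lineages depend.

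The libraries held between 10882687 (NPC 3) and 46220373 (D16) total expected counts. All 7 expressed the markers of the labelled cell type, with *Aire* at 95.2 to 439 FPKM, *Fezf2* at 99.5 to 195, *Krt5* at 1442 to 3628, *Ccl21a* at 9069 to 15266 and *Epcam* at 125 to 289. FPKM is the number of fragments of a gene per kilobase of its transcripts and relative to the total of fragments counted in the library. Markers of cTECs were also present, at lower levels than in the cTEC libraries of the same groups. *Psmb11* lay between 4.51 and 26.6 FPKM in the mTEC libraries and between 49 and 231 in the cTEC libraries, and *Prss16* between 24.4 and 174 against 877 and 3248. The NPC 3 and D16 libraries stood apart from the other 5. They held the most genes with a count among the 56 libraries (25128 and 25798), and their log2 expression correlated with r = 0.977, where the other pairs among the 7 lay between 0.780 and 0.910. Among the genes tested, 3.06% had no count in NPC 3 and 2.59% in D16, against 16.4% in NPC 1 and 19.4% in NPC 2. Values without both libraries are given for the counts of genes and for the genes and lists in which they decide the picture.

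No gene met the thresholds of differential expression in mTECs of late regeneration against NPC (limma-voom, fold-change of at least 2 and Benjamini-Hochberg adjusted p of at most 0.01). Of 17743 genes tested, 0 were called, a background of 0%, and the smallest adjusted p was 0.791. At an unadjusted p under 0.05, limma-voom found 1019 genes (5.74%), 732 of them higher (4.13%) and 287 lower (1.62%) in late mTECs. The edgeR quasi-likelihood test called 0 genes, with 344 at an unadjusted p under 0.05. DESeq2 called 4, all higher, with 453 at an unadjusted p under 0.05. Without NPC 3 and D16, limma-voom called 0, with 1821 at an unadjusted p under 0.05. The median log2 fold change over all genes tested was 0.09, and the median size of a change without its sign was 0.42, close to the median standard error of 0.48. For the 7841 genes with a mean of at least 10 FPKM, the median standard error was 0.29. The 7 mice therefore left wide intervals, and a difference that was not called is not shown to be absent. In 398 genes (2.24%) all 4 late libraries lay above all 3 NPC libraries, and in 265 (1.49%) all lay below.

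Among the 18 lists of genes that TECs express, those with the lowest medians were the immediate-early genes and the FOXN1 and cortical genes. In the FOXN1 and cortical list, 0 of 10 members were called, 7 had a negative log2 fold change (as did 43.3% of all genes tested), and the median was -0.40 against 0.09 over all genes. An unadjusted p under 0.05 was found in 4 members, all lower in late mTECs, where 1.62% of all genes tested met that criterion in that direction. The median stayed negative in all 19 alternatives, between -0.50 and -0.35. Summed over the 10 genes, expression was 2048, 1895 and 2007 FPKM in NPC and 1672, 1045, 987 and 1226 FPKM at D16, D20, D24 and D28. The late sums lay below every NPC sum, with D16 nearest to them. *Ctsl* and *Tbata* made most of each sum, with 871 and 790 FPKM in NPC 1 and 929 and 473 FPKM at D16. The sums therefore mainly restate these genes. In a sorted bulk sample, fewer cells that express these genes and less RNA per cell cannot be told apart.

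*Psmb11* and *Tbata* had the lowest p-values of that list, and their promoters are shown with the letters GACGC, the core that FOXN1 is known to bind, searched on both strands (GCGTC on the other strand) and set in capitals. The windows run from 250 bases before to 50 bases after the RefSeq start on GRCm38.p6, chr14:54625060-54625359 (plus strand) for *Psmb11* and chr10:61171714-61172013 (plus strand) for *Tbata*.
Psmb11: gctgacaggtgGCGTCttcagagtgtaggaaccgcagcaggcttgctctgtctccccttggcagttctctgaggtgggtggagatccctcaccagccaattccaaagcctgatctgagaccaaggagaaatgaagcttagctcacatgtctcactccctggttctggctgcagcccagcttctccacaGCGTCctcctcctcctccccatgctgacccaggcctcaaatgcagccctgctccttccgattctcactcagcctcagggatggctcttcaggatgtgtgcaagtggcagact
Tbata: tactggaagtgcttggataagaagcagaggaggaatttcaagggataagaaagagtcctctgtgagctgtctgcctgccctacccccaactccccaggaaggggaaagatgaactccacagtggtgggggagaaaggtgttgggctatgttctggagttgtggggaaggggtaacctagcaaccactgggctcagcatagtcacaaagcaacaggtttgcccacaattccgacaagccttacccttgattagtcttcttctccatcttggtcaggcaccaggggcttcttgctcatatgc
The *Psmb11* window held 2 copies, both as GCGTC, and the *Tbata* window held none. Over the list, 3 of the 8 genes with a promoter in the RefSeq table held the letters (*Psmb11*, *Enpep* and *Kitl*), where 27.2% of 32841 promoters of that length did. A match is a run of letters and does not show binding.

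*Tbata*, a gene named for its expression in thymus, brain and testis (chromosome 10, 61171954 to 61188841, GRCm38), was measured at 790, 592 and 509 FPKM in NPC and at 473, 197, 228 and 254 FPKM at D16, D20, D24 and D28. All 4 late libraries lay below all 3 NPC libraries, and D16 was close to the lowest of them. The log2 fold change was -1.10 ± 0.25 (SE), with a 95% confidence interval of -1.66 to -0.54 and an adjusted p of 0.791 in limma-voom (0.0964 to 1 over the alternatives). In the other 21 mTEC libraries of the series, from D-2 to D12, *Tbata* ranged from 268 to 1954 FPKM with a median of 685, so that D20, D24 and D28 lay below that whole range.

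*Prss16*, the thymus-specific serine protease (chromosome 13, 22002173 to 22009742), stood at 140, 174 and 138 FPKM in NPC and at 92.1, 50.9, 24.4 and 95.1 FPKM from D16 to D28. Again the groups did not overlap, and D24 was the lowest library. Its log2 fold change was -1.38 ± 0.36 (SE), 95% confidence interval -2.17 to -0.60. *Psmb11*, the beta5t subunit of the thymoproteasome, was at 25.7, 26.6 and 7.77 FPKM in NPC and at 4.92, 8.24, 5.06 and 4.51 FPKM in the late libraries. NPC 3 lay with the late libraries for this gene, and the other NPC libraries lay above all of them (log2 fold change -1.93 ± 0.43 (SE), and -2.27 without NPC 3 and D16). *Ctsl*, which encodes cathepsin L, a protease of the class II pathway in cTECs, had means of 973 ± 173 (SD, n = 3) FPKM in NPC and 695 ± 167 (SD, n = 4) in late mTECs, a log2 fold change of -0.51 ± 0.19 (SE). None of these differences was called.

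The other cortical genes differed less. *Foxn1* itself was at 113, 97.5 and 49.4 FPKM in NPC and 54.3, 71.4, 92.8 and 80.8 FPKM in late mTECs, and the groups overlapped (log2 fold change -0.22, 95% confidence interval -0.92 to 0.48). *Ly75*, an endocytic receptor, and *Enpep*, an aminopeptidase also known as Ly51, are surface markers of cTECs. *Ly75* lay between 6.17 and 19.7 FPKM in NPC and between 10.7 and 19.6 in late mTECs, with a log2 fold change of 0.27, and *Enpep* lay between 4.69 and 9.34 and between 3.97 and 10.1, with one of 0.26. The Notch ligand *Dll4* had a log2 fold change of -0.41 (95% confidence interval -1.32 to 0.50), the cytokine *Il7* one of -0.39 (-0.85 to 0.07), and the growth factor *Kitl* one of 0.31 (-0.47 to 1.10). The list is thus uneven, with the 4 lowest members being *Psmb11*, *Prss16*, *Tbata* and *Ctsl*. A change in the share of cTECs in the sort was not tested.

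**Figure D1:**
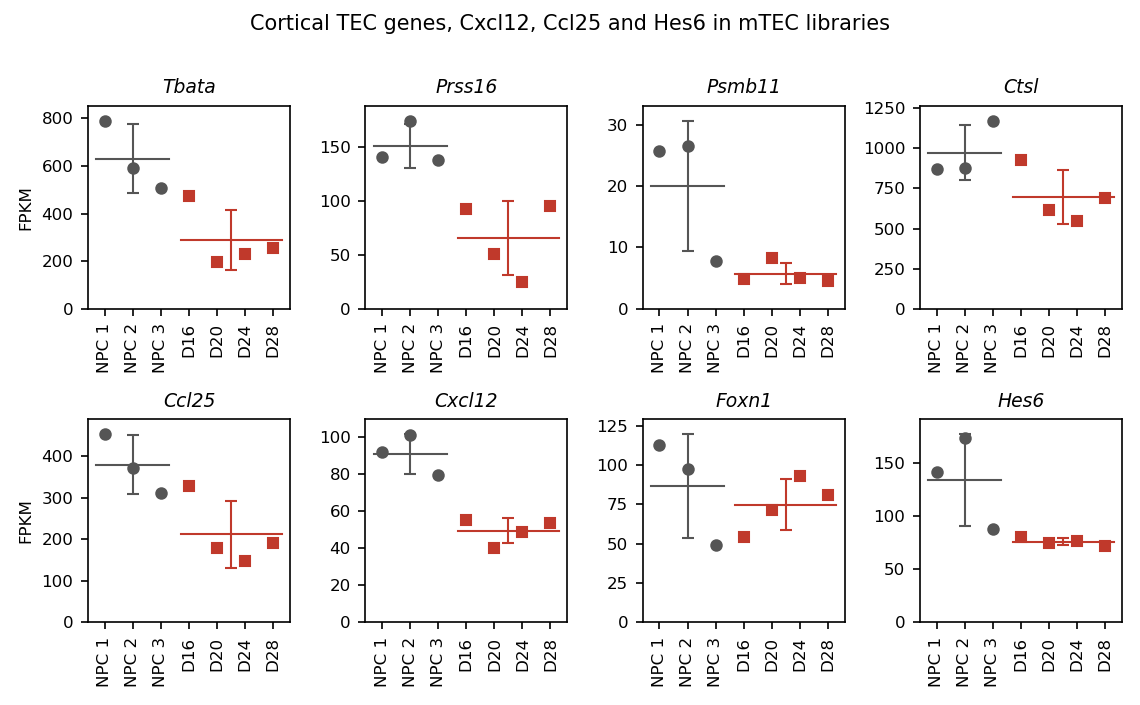
FPKM (y axis, from 0) of 8 genes in each of the 7 mTEC libraries (x axis). Grey circles are NPC, red squares are the late libraries, horizontal lines are group means and vertical bars are 1 SD. The groups do not overlap for Tbata, Prss16, Cxcl12 and Hes6. D16 is the late library nearest to NPC for Tbata, Ctsl, Ccl25, Cxcl12 and Hes6.

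Of the thymic chemokines, 0 of 11 were called and the list median was -0.11. *Cxcl12* and *Ccl25*, which draw progenitors to the cortex and are also targets of FOXN1, had the lowest p-values. *Cxcl12* was at 91.6, 101 and 79.3 FPKM in NPC and at 55.4, 40.2, 48.9 and 53.4 FPKM in late mTECs, with no overlap (log2 fold change -0.89 ± 0.20 (SE), 95% confidence interval -1.33 to -0.45). This was the lowest p among the genes of all lists (unadjusted p = 0.000914, adjusted p = 0.791, limma-voom, and 0.0347 to 1 over the alternatives). *Ccl25* was at 454, 373 and 312 FPKM in NPC and at 329, 179, 148 and 191 FPKM in late mTECs. Only D16 fell inside the NPC range (log2 fold change -0.92 ± 0.26 (SE), and -1.30 without NPC 3 and D16). *Ccl21a*, the ligand of CCR7 that brings positively selected thymocytes into the medulla, was the most abundant of the list and had a log2 fold change of -0.20 (95% confidence interval -0.70 to 0.30), and *Ccl19*, the second CCR7 ligand, one of -0.08 (-0.61 to 0.45). *Ccl22*, a CCR4 ligand, was at 16.2, 13.8 and 18.3 FPKM in NPC and 46.7, 33.2, 30.6 and 22.9 FPKM in late mTECs, all late libraries above all NPC libraries (log2 fold change 0.83 ± 0.34 (SE)).

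Immediate-early and heat-shock genes respond quickly to growth factors and to stress, tissue dissociation included. Among the 18 lists of genes that TECs express, only this list had all tested members on one side. All 15 had a negative log2 fold change (as did 43.3% of all genes tested), 0 were called, and the median was -0.64. An unadjusted p under 0.05 was found in 7 of 15 against 1.62% of all genes in that direction. The summed expression was 6064, 5327 and 10610 FPKM in NPC and 8123, 2969, 3243 and 3172 FPKM from D16 to D28. The late libraries did not lie together here. At D20 and D28, 14 of the 15 genes lay below all 3 NPC libraries, and at D24 11 did, whereas at D16 none did and 3 lay above all NPC libraries. The share of all genes tested in these positions was not computed for single libraries. How unusual these counts are for a gene list is therefore not known. D16 and NPC 3, the libraries that stood apart, were also the highest of the 7 sums, and without both of them the list median was -0.73.

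*Fos*, which encodes a subunit of the AP-1 factor, was at 1916, 1576 and 2483 FPKM in NPC and at 1850, 741, 722 and 856 FPKM in late mTECs. The fold change was -1.09 ± 0.28 (SE) on the log2 scale, with a 95% confidence interval of -1.71 to -0.47, and -1.25 without NPC 3 and D16. *Egr1*, a zinc finger factor induced by growth factors, and *Zfp36*, which destabilises AU-rich mRNAs, had log2 fold changes of -0.98 (-1.60 to -0.35) and -0.97 (-1.61 to -0.34). *Egr1* was at 582, 457 and 822 FPKM in NPC and 574, 252, 222 and 270 FPKM in late mTECs, and *Zfp36* was at 686, 521 and 1015 and at 682, 275, 318 and 306 FPKM. Both were higher in the 3 NPC libraries and at D16 than at D20, D24 and D28. *Hspa1a* and *Hspa1b*, the inducible HSP70 genes, which are near-identical and share reads, were highest at D16 (479 and 638 FPKM) and had log2 fold changes of -0.57 and -0.11. *Dusp1*, a phosphatase of MAP kinases that is induced by glucocorticoids and by stress and is listed among the steroid-responsive genes, was at 340, 323 and 307 FPKM in NPC and 292, 170, 175 and 181 FPKM in late mTECs (log2 fold change -0.77 ± 0.20 (SE)). All late values lay below the NPC values. The handling of the thymi on each day was not tested.

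**Figure D2:**
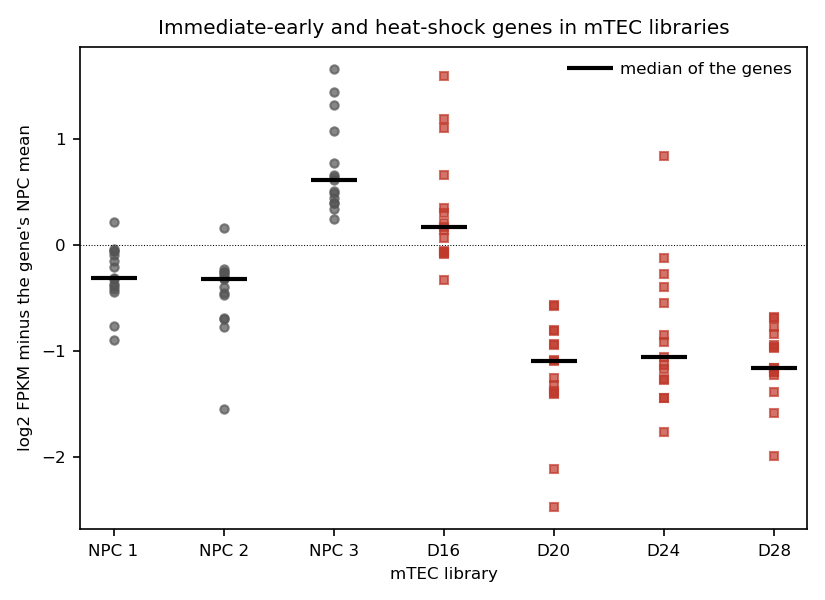
Each point is 1 of 15 immediate-early and heat-shock genes in 1 mTEC library. The y axis is log2 FPKM minus the gene's mean over the 3 NPC libraries, grey circles are NPC, red squares are late libraries, and black bars are medians of the genes. D16 sits near the NPC level, and D20, D24 and D28 sit below it, with 14, 11 and 14 of 15 genes below all NPC libraries. The share of all genes tested in that position was not computed for single libraries.

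The genes that define mature mTECs were not called. Of the mTEC maturation regulators, 0 of 14 passed, 13 had a log2 fold change above 0 (as did 56.7% of all genes), and the median was 0.19. *Aire* was at 95.2, 102 and 317 FPKM in NPC and at 439, 135, 184 and 111 FPKM in late mTECs. NPC 3 and D16 were the highest library of each group, and the group means were 172 ± 126 (SD, n = 3) and 217 ± 151 (SD, n = 4). The log2 fold change was 0.35 with a 95% confidence interval of -0.75 to 1.45, and it was -0.08 without D16, 0.40 without NPC 3 and D16 and -0.16 with sample quality weights, so that its direction was not fixed. *Fezf2*, the second regulator of peripheral antigens, was at 158, 99.5 and 141 FPKM in NPC and 160, 143, 195 and 134 FPKM in late mTECs (log2 fold change 0.25, 95% confidence interval -0.23 to 0.73).

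*Map3k14*, the kinase NIK at the head of the non-canonical NF-kappaB pathway, had the lowest p of these regulators. It was at 13, 6.4 and 19.3 FPKM in NPC and 28.5, 17.1, 27.9 and 16.1 FPKM in late mTECs, with NPC 3 inside the late range (log2 fold change 1.00 ± 0.34 (SE), and 0.49 without NPC 2). *Nfkb2*, which that pathway processes from p100 to p52, was at 122, 107 and 116 FPKM in NPC and at 133, 139, 146 and 131 FPKM in late mTECs. The 4 late libraries lay above the NPC libraries by a small margin, a log2 fold change of 0.24 (95% confidence interval -0.13 to 0.62). *Tnfrsf11b*, the RANK decoy receptor osteoprotegerin, had one of 0.55 (-0.34 to 1.44), and *Tnfrsf11a*, RANK itself, one of 0.36 (-0.33 to 1.06). *Cd40*, the receptor that acts with RANK in mTEC maturation, had one of 0.05 (-0.57 to 0.67), with a sign that turned in 6 of 19 alternatives.

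**Figure D3:**
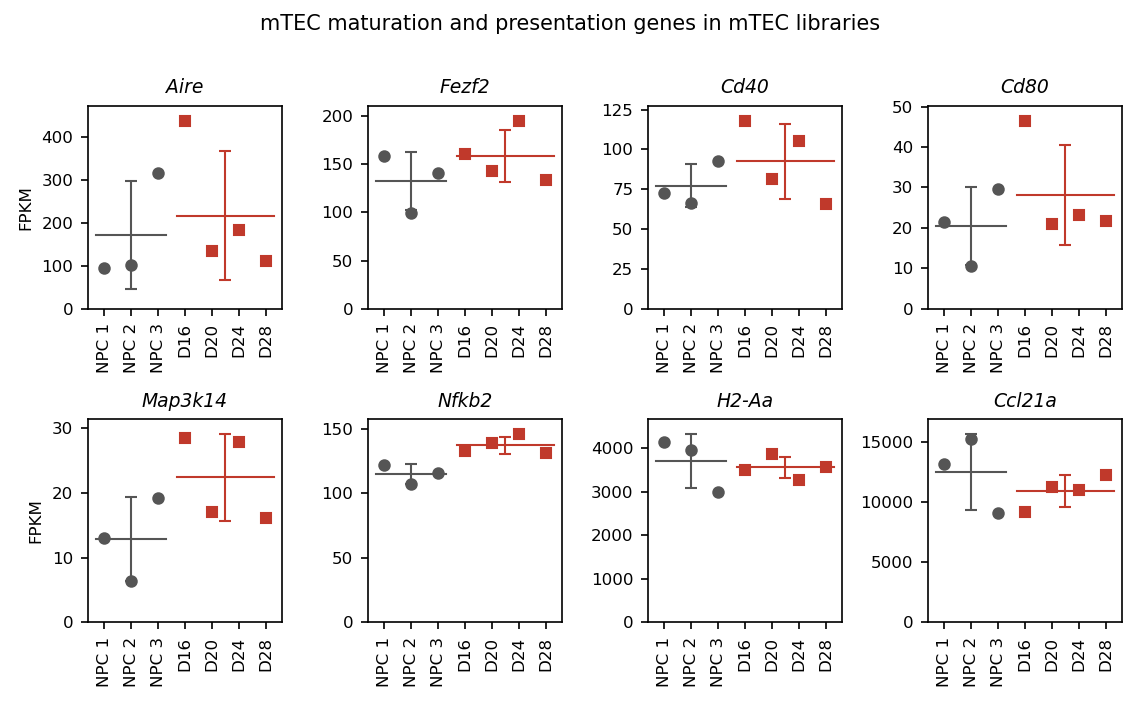
FPKM (y axis, from 0) of 8 genes of mTEC maturation and antigen presentation in each of the 7 mTEC libraries. Grey circles are NPC, red squares are late libraries, horizontal lines are group means and vertical bars are 1 SD. For Aire and Cd80 the highest libraries are D16 and NPC 3, and only Nfkb2 shows no overlap of the groups, with 107 to 122 FPKM in NPC and 131 to 146 FPKM in late mTECs.

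Costimulatory and checkpoint ligands had 0 of 8 members called and a median of 0.43, which was 0.14 without NPC 2. *Cd80* was at 21.4, 10.5 and 29.6 FPKM in NPC and 46.5, 21, 23.3 and 21.7 FPKM in late mTECs, 3 of which lay inside the NPC range (log2 fold change 0.67, 95% confidence interval -0.19 to 1.54). It was 0.39 without D16, 0.15 without NPC 2 and 0.58 without NPC 3 and D16. *Cd86*, the second ligand of CD28, was at 1.14, 0 and 7.24 FPKM in NPC and at 10.6, 6.28, 13.4 and 9.38 FPKM in late mTECs. The fitted log2 fold change of 4.25 rests on NPC 2 at 0 and was 1.51 without it. *Cd274* and *Pdcd1lg2*, the ligands of PD-1, had log2 fold changes of -0.57 (-1.46 to 0.31) and 0.35 (-0.30 to 0.99). Peptide presentation genes differed little. In the MHC class II list 0 of 13 were called, the median was -0.04, and no log2 fold change was larger than 0.25 in size. *H2-Aa*, the alpha chain of I-A, was at 4153, 3974 and 3000 FPKM in NPC and 3508, 3882, 3272 and 3582 FPKM in late mTECs, and *Cd74*, the invariant chain, had a log2 fold change of -0.04 (-0.37 to 0.30). *Ciita*, the master regulator of class II genes, had one of 0.15 (-0.23 to 0.53). In the MHC class I list 0 of 13 were called and the median was -0.04, with *Nlrc5*, the class I transactivator, highest at 0.81 (-0.09 to 1.71) and the immunoproteasome subunit *Psmb9* lowest at -0.46 (-1.02 to 0.10).

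The breadth of transcription, taken as the number of genes detected, overlapped between the groups. Whether promiscuous expression or the loss of transcripts from single libraries set this number was not tested. Among tested genes with a mean of at least 10 FPKM over the mTEC samples, 0.638%, 0.944% and 0.166% had no count in NPC 1, NPC 2 and NPC 3. At D16, D20, D24 and D28, 0.115%, 0.37%, 0.625% and 0.268% of them had none. With all 7 libraries subsampled to 10882643 counts, 15357, 14740 and 20931 genes had at least 3 counts in NPC and 21361, 16870, 15947 and 18654 at D16, D20, D24 and D28. The means were 17009 ± 3410 (SD, n = 3) and 18208 ± 2383 (SD, n = 4), and the difference of 1199 genes had p = 0.571 in a two-sided exact permutation test, whose 35 assignments cannot give less than 0.0286. Without NPC 3 the difference was 3160 genes (p = 0.133, exact permutation test), without D16 it was 148 and without NPC 2 it was 64. Without both NPC 3 and D16, all 3 late libraries lay above both NPC libraries, with a difference of 2108 genes (p = 0.2, two-sided exact permutation test, whose 10 assignments cannot give less than 0.1). Of 18 tissue-restricted antigens found in the files, 15 passed the filter and 0 were called, with a median of 0.54 that was 0.19 without NPC 1, and several rest on libraries at 0. *Csn2*, the milk protein beta-casein, whose transcription in mTECs depends on AIRE, was at 322, 226 and 438 FPKM in NPC and at 551, 376, 240 and 245 FPKM in late mTECs (log2 fold change 0.16, 95% confidence interval -0.52 to 0.83). *Ins2*, the insulin gene, had no count in NPC 1, NPC 2, D20 and D24, and lay at 3.26 FPKM in NPC 3, 4.85 at D16 and 3.65 at D28.

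**Figure D4:**
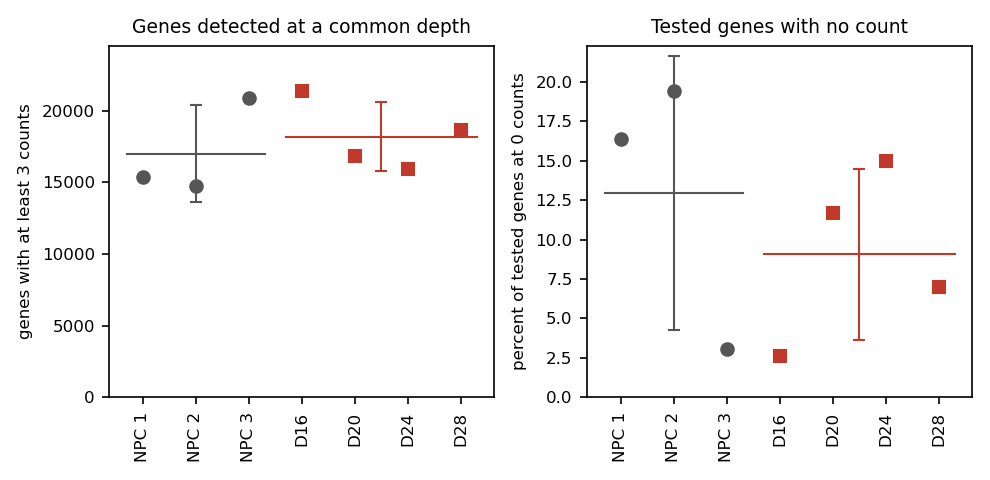
Left, genes reaching 3 counts once all 7 libraries were subsampled to 10882643 counts; right, percent of the 17743 tested genes with no count. Grey circles are NPC, red squares are late libraries, horizontal lines are group means and vertical bars are 1 SD, and both y axes start at 0. NPC 3 (20931 genes) and D16 (21361 genes) lie above the other 5 libraries.

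mTECs include mimetic cells that take on programs of peripheral epithelia. Of the tuft cell genes 0 of 15 were called (median 0.17), of the microfold and intestinal genes 0 of 13 (0.15), of the cornified keratinocyte-like genes 0 of 14 (0.28), and of the ciliated, neuroendocrine, muscle and ionocyte genes 0 of 13 (0.64). These medians moved with single NPC libraries. That of the ciliated and related genes was 0.02 without NPC 2, that of the cornified genes -0.02 without NPC 2, that of the tuft cell genes -0.05 without NPC 1, and that of the microfold genes 0.31 without NPC 1. *Foxj1*, the master factor of ciliated cells, was at 5.87, 8.89 and 9.15 FPKM in NPC and 13.3, 12, 11.7 and 18.6 FPKM in late mTECs. All late libraries lay above the NPC libraries (log2 fold change 0.80 ± 0.33 (SE)). *Krt77*, a keratin, was at 9.98, 5.95 and 14.1 FPKM in NPC and 22, 15.3, 19.4 and 13.7 FPKM in late mTECs (log2 fold change 1.00 ± 0.32 (SE)), with D28 inside the NPC range, and *Krt10*, the keratin of suprabasal keratinocytes, had a log2 fold change of 1.28 that was 0.23 without NPC 2. *Pou2f3*, the factor that specifies tuft cells, had one of -0.18 (-0.99 to 0.64).

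*Chga*, the secretory granule protein chromogranin A, was at 78.4, 731 and 315 FPKM in NPC and at 93.1, 47.2, 124 and 102 FPKM in late mTECs (log2 fold change -1.61 ± 0.60 (SE)). NPC 2 and NPC 3 were high and NPC 1 lay within the late range. The parathyroid, an endocrine gland that can lie beside or within the thymus, also expresses chromogranin A, and its hormone gene *Pth* followed the same libraries, with 63, 953 and 618 FPKM in NPC and 160, 65.2, 133 and 79.5 FPKM in late mTECs. Of the 3 parathyroid markers, *Gcm2* did not pass the filter, *Casr* lay between 4.05 and 13.9 FPKM in all 7, and the summed level ranged from 67.7 to 962 FPKM in NPC and from 79.1 to 168 in late mTECs. The part of parathyroid RNA in the *Chga* values was not tested.

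Proliferation genes had 0 of 20 members called and a median of 0.22 that turned negative in 4 of 19 alternatives. *Mki67*, the Ki67 antigen, was at 14, 15.7 and 27.5 FPKM in NPC and 27.9, 23.2, 21.6 and 16.9 FPKM in late mTECs (log2 fold change 0.30, 95% confidence interval -0.22 to 0.81). *Top2a*, a topoisomerase of dividing cells, had one of 0.65 (-0.06 to 1.37) and *Aurkb*, a mitotic kinase, one of -0.56 (-1.37 to 0.25). Of the keratins, basal and junction genes 0 of 19 were called (median 0.02), with *Krt5* and *Krt14*, the basal keratins, at 0.20 (-0.59 to 1.00) and 0.02 (-0.59 to 0.64). *Krt5* was lowest in NPC 3 (1442 FPKM) and D16 (1538 FPKM) and between 2756 and 3628 FPKM in the other 5. The Notch list had 0 of 10 called and a median of 0.32. Its member *Hes6*, a relative of the Notch target HES1 that acts against it, was at 141, 173 and 87.5 FPKM in NPC and at 80.5, 74.6, 76.4 and 71.8 FPKM in late mTECs, all below the NPC libraries (log2 fold change -0.81 ± 0.25 (SE)). *Hes1* itself lay between 40.2 and 59.6 FPKM in NPC and was at 32.2, 88.5, 94.1 and 104 FPKM in late mTECs, D16 below the NPC range and the other 3 above it (log2 fold change 0.43, 95% confidence interval -0.58 to 1.44).

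Hormone and inflammation genes gave no call. Of the steroid receptors and steroid-responsive genes 0 of 12 were called (median -0.01, with a sign that turned in 9 of 19 alternatives). *Pgr*, the progesterone receptor, was at 0.87, 2.27 and 2.65 FPKM in NPC and at 2.51, 2.35, 2.34 and 5.55 FPKM in late mTECs, high at D28 alone (log2 fold change 1.09, 95% confidence interval -0.30 to 2.48). *Esr1*, the estrogen receptor alpha, had a log2 fold change of -0.29 (-0.97 to 0.38), and *Fkbp5*, a target of the glucocorticoid receptor, one of -0.40 (-0.84 to 0.05). The interferon-stimulated list had 0 of 16 called (median 0.10), with *Stat2* at 0.58 (-0.04 to 1.19) and *Isg15* at 0.05 (-0.63 to 0.72). The acute-phase list had 0 of 10 called (median 0.35). In it *Lcn2*, the siderophore-binding lipocalin, was at 25.3, 37.9 and 26.1 FPKM in NPC and 42.8, 56.4, 78.9 and 63.9 FPKM in late mTECs, without overlap (log2 fold change 0.89 ± 0.35 (SE)).

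**Figure D5:**
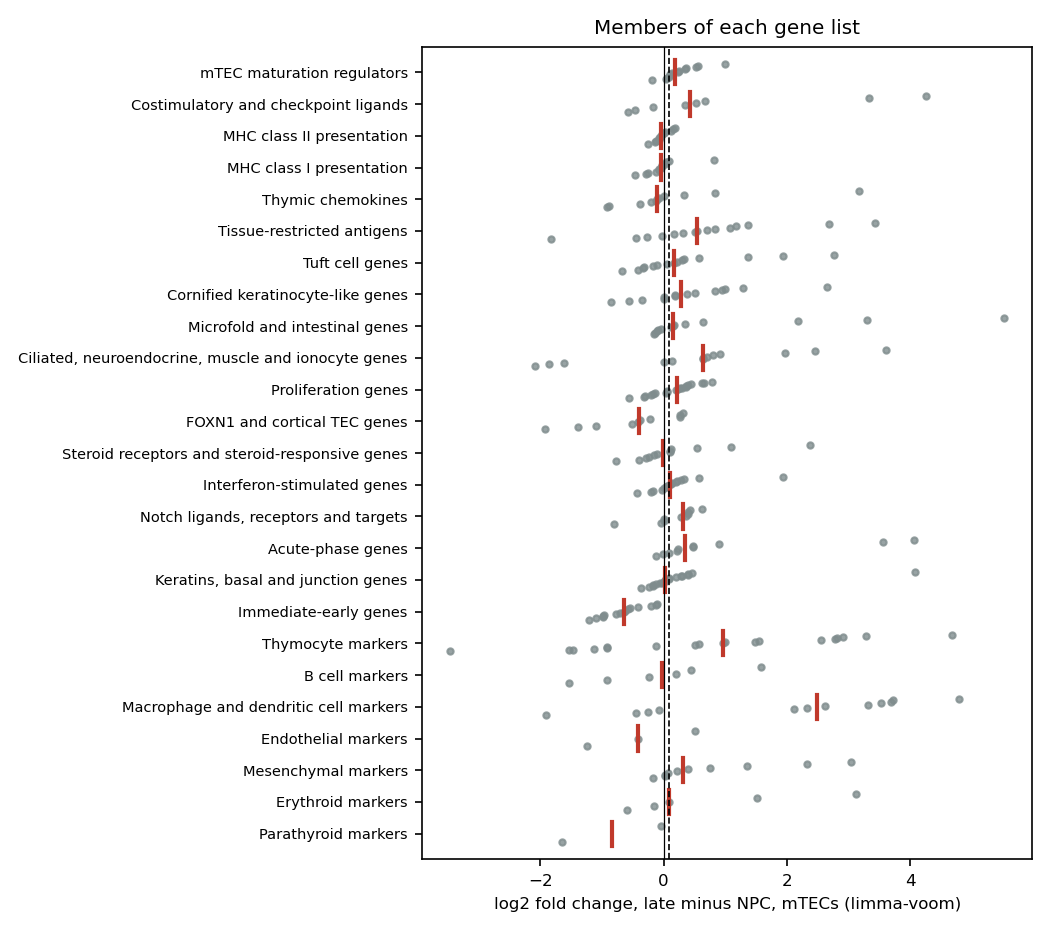
Each grey point is the log2 fold change (late minus NPC, x axis) of 1 tested gene, by list (y axis), red bars are list medians, the solid line is 0 and the dashed line is the median of all 17743 genes tested (0.09). Among the 18 TEC lists the medians lie between -0.64 (immediate-early genes) and 0.64 (ciliated, neuroendocrine, muscle and ionocyte genes, 0.02 without NPC 2).

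The rule for naming further genes (fold-change of at least 2, mean of at least 5 FPKM in the higher group, no overlap) was met by 75 genes in the upward direction (0.423%) and 40 in the downward direction (0.225%), and those with the lowest p in each were taken, none of them called. Upward, *Nrp2*, which encodes neuropilin-2, a co-receptor of semaphorins and VEGF-C, was at 2.25, 2.43 and 5.27 FPKM in NPC and 9.36, 6.92, 5.77 and 6.14 FPKM in late mTECs. Its log2 fold change was 1.33 ± 0.34 (SE), 95% confidence interval 0.58 to 2.07, and NPC 3 lay just below the late libraries. The annotated span of *Nrp2* overlaps *Gm37121* on the same strand, and the part of shared reads was not tested. *Neu3*, a sialidase of gangliosides, had means of 2.26 ± 1.32 (SD, n = 3) FPKM in NPC and 6.04 ± 0.747 (SD, n = 4) in late mTECs, and *Ces2c*, a carboxylesterase, 5.59 ± 2.45 (SD, n = 3) and 14 ± 5.44 (SD, n = 4).

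The remaining upward genes rest on libraries without a count. *Gm20521* had 0 counts in all 3 NPC libraries and 117, 256, 355 and 112 counts at D16, D20, D24 and D28, but its annotated span (chromosome 14, 54883441 to 54898137) overlaps *Pabpn1* and *Bcl2l2* on the same strand, so that its counts depend on how RSEM divides shared reads. *Abraxas1*, a scaffold of the BRCA1-A complex, was at 0, 0 and 3.17 FPKM in NPC and 4.72, 6.52, 9.66 and 4.05 FPKM in late mTECs. Its annotated span overlaps *Gm43513* and *Gm43514* on the same strand, and the part of shared reads in its values was not tested. In the downward direction, besides *Tbata* and *Prss16*, *3110009E18Rik* was at 14.3, 24.7 and 9.48 FPKM in NPC and 3.51, 0.13, 0.07 and 0 FPKM in late mTECs, with D16 the highest of the late libraries. The lincRNA *Gm15767* was at 6.31, 18.7 and 0.6 FPKM in NPC and at 0.09 or 0 FPKM in late mTECs. The processed pseudogenes *Gm9845* and *Gm12396*, whose reads may be shared with their parent genes, had counts in the NPC libraries and at D16 and none at D20, D24 and D28. For such genes the fitted fold change depends on how 0 counts are treated and gives no bound.

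The other DESeq2 calls, named here after their values were seen, were of the same kind. *Gm19817* was at 0, 0 and 0.04 FPKM in NPC and 0.19, 4.33, 5.26 and 4.78 FPKM in late mTECs, the lincRNA *Gm43055* had no count outside D24 (23.4 FPKM) and D28 (2.66 FPKM), and the processed pseudogene *Gm18212* was at 0 in NPC and at 0.05, 9.59, 20.3 and 2.68 FPKM in late mTECs. *Gm43055* thus overlapped between the groups.

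The difference between late and NPC was also set against that in cTECs sorted for the same time points (4 late and 3 NPC libraries). The contrast of the 2 differences called 0 of 18394 genes (0%), with a smallest adjusted p of 0.998 in limma-voom and 501 genes (2.72%) at an unadjusted p under 0.05, 352 of them positive (1.91%) and 149 negative (0.81%). The edgeR quasi-likelihood test called 0, with 273 at an unadjusted p under 0.05, and DESeq2 called 11. With 1 library left out, limma-voom found from 249 (without cTEC NPC 2) to 1080 (without mTEC NPC 3) at that p. *Prss16* in cTECs was at 1436, 2020 and 1194 FPKM in NPC and at 3248, 1126, 877 and 954 FPKM in late cTECs, where D16 was the highest of the 7. The mTEC difference was lower than the cTEC difference by 1.02 on the log2 scale, with a 95% confidence interval of -2.28 to 0.24. For *Tbata* the contrast was -0.81 (-1.81 to 0.19), for *Psmb11* -1.10 (-2.69 to 0.49), for *Cxcl12* -0.43 (-1.24 to 0.38), for *Ccl25* -0.62 (-1.83 to 0.59) and for *Fos* -0.31 (-1.48 to 0.85). All 6 intervals include 0, so that none of these genes was shown to differ from NPC by another amount in mTECs than in cTECs. Among other genes described above, the interval excluded 0 for *Neu3* (2.07, 0.06 to 4.08) and *Chga* (-2.78, -5.48 to -0.09). It also did so for *Gm20521*, *Abraxas1*, *Gm15767* and *Gm12396*, which had libraries without a count. Each of these genes had an adjusted p of 0.998 in limma-voom, and none was called. For *Nrp2* the contrast was 0.03 (-1.43 to 1.49), an interval too wide to show that the cell types were alike, and in cTECs it was at 2.74, 1.79 and 3.29 FPKM in NPC and 3.5, 5.83, 6.47 and 7.47 FPKM in the late libraries.

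Transcripts of other cell types are given by list. Of the 20 thymocyte markers 19 passed the filter, 14 of them had no count in some library, and their sum was 62.7 to 72.8 FPKM in NPC and 70.4 to 102 in late mTECs. *Cd3e* was at or below 1.75 FPKM in all 7 libraries. Macrophage and dendritic cell markers (12 of 15 passed) summed to 103 to 169 FPKM in NPC and 90.7 to 231 in late mTECs, of which *Lyz2* made 50.4 to 176, and B cell markers (6 of 8) to 78.7 to 124 and 99.4 to 131. Endothelial markers (3 of 8) summed to at most 15.4 FPKM and erythroid markers (5 of 6) to at most 42.1 FPKM in any library, and mesenchymal markers (10 of 10) summed to 543 to 651 FPKM in NPC and 564 to 745 in late mTECs. Most of that sum was *Acta2*, smooth muscle actin, at 404 to 493 FPKM in NPC and 430 to 559 in late mTECs, and *Dcn*, the proteoglycan decorin, was at 81.2 to 127 and 61 to 130. Among these 6 lists 0 markers were called. Their median log2 fold changes were 0.96 for thymocytes, 2.48 for macrophages and dendritic cells, -0.02 for B cells, -0.41 for endothelium, 0.08 for erythroid cells and 0.31 for mesenchyme, and that of the parathyroid list was -0.84. Several of them moved with 1 library. The thymocyte median was 0.27 without NPC 2, the macrophage and dendritic median 0.82 without NPC 1 and 3.81 without NPC 3, the erythroid median 1.83 without NPC 3, the endothelial median -0.78 without NPC 1 and -0.14 without D24, the B cell median 0.18 without NPC 1 and -0.34 without D16, the mesenchymal median 0.15 without NPC 2 and 0.50 without NPC 3, and the parathyroid median -1.63 without NPC 1 and -0.29 without NPC 2. With only genes of a mean of at least 2 FPKM, the macrophage and dendritic median was -0.17 and the endothelial one 0.50. Of the macrophage and dendritic markers, 8 had no count in some library, and the median rests largely on them. *Tyrobp*, which had a negative log2 fold change, was among the 8. Of these, *C1qa*, a complement subunit made by macrophages, was at 0, 3.93 and 4.32 FPKM in NPC and 6.63, 7.91, 19.3 and 6.3 FPKM in late mTECs. *C1qa* and *C1qb* were the 2 of 12 markers whose late libraries all lay above NPC (2.24% over all genes). Of the 12, 8 had a positive log2 fold change and 4 a negative one, *C1qc* (-0.08), *Lyz2* (-0.25), *Cd68* (-0.45) and *Tyrobp* (-1.90). The mean sums of the list were 133 FPKM in NPC and 136 FPKM in late mTECs. *Ighm*, the heavy chain of immunoglobulin M, was the B cell marker with no overlap, at 9.23, 4.46 and 5.49 FPKM in NPC and 26.3, 25, 16.7 and 10.2 FPKM in late mTECs (log2 fold change 1.57, 95% confidence interval 0.32 to 2.82). *Fbn1*, the matrix protein fibrillin-1, was the mesenchymal marker whose late libraries (23.7, 38.6, 27.2 and 28.8 FPKM) all lay above NPC (18.2, 15.2 and 19.3 FPKM). Their part in the differences above was not tested.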

How the data were processed

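Poly-A RNA of sorted mTECs, 1 mouse per replicate, was sequenced from stranded KAPA libraries on a NextSeq500. According to the submitters' processing notes and the study's methods, the authors used bcl2fastq 2.20, trimmed reads with Trimmomatic 0.35, aligned them to GRCm38 with STAR 2.5.1b and quantified genes with RSEM 1.2.28. They deposited RSEM's expected count per gene, an estimated count that is not normalized, and FPKM values that the authors scaled by transcript length and by the fragments of each sample. The annotation release is not given in the sources used here, and symbols and coordinates came from GENCODE M21 on GRCm38, which matched 50376 of 50600 identifiers.

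Expected counts were rounded, scaled by TMM (edgeR 4.0.16) and fitted with voom of limma 3.58.1 under R 4.3.3. The limma-voom method and the thresholds for a call follow the study's methods, and rounding and TMM were chosen here. Genes with a mean of at least 0.5 FPKM over the 28 mTEC samples were tested, and for the contrast with cTECs those that passed in either cell type. Calls needed a fold-change of at least 2 and an adjusted p of at most 0.01, and intervals are 95% confidence intervals of the log2 fold change. Late samples entered as 1 group without covariates. The number of genes detected was compared by an exact permutation test after drawing down to 10882643 counts. Depth was 10882687 to 46220373 counts per library, and values carry the spread between mice as their error. DESeq2 1.42.0 and the other settings are described with the sensitivity of the results. Tests were tried on simulated counts. Python 3.11.15, NumPy 2.4.6, pandas 2.3.3 and SciPy 1.17.1 were used.

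The members, the 25 gene lists and the tests were chosen with earlier results of these data known, and no list was tested as a set. Of 319 list genes, 1 was not found in the files. Named genes were the 6 of lowest p in each direction with a fold-change of at least 2, a mean of at least 5 FPKM in the higher group and no overlap, since none was called, 3 members of each of the 18 TEC lists with the lowest p, and *Aire*, *Cd80*, *Cd86*, *Cd40* and *Foxn1*. 1 gene that met this rule is not reported here. Other list members were named after their values were seen.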

Additional observations from a re-analysis of the deposited data

Results flagged for a closer look

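In 13 of 93 sets of 4 late values tested, 1 library lay far from the other 3 (Dixon's ratio above its 95% critical value). Chance gives such a ratio in about 1 of 20 sets of independent values with a normal spread. The sets here were not independent, since sums hold genes also tested singly. For *Gm15767*, *Gm9845* and *Gm12396* the other late values were all 0. The 13 flagged sets can therefore not be set against that rate. Low against the rest was the summed level of the cornified keratinocyte-like genes at D28, 308 FPKM. High against the rest at D16 were *Fos* (1850 FPKM), *Egr1* (574), *Zfp36* (682), *Dusp1* (292), the summed immediate-early genes (8123 FPKM), *Cd80* (46.5), *3110009E18Rik* (3.51), *Gm15767* (0.09), *Gm9845* (1.85) and *Gm12396* (1.22). For each of these 10 values D16 was closer to the NPC range than the other late libraries, or lay inside it, with the exception of *Cd80*, where it lay above it. *Psmb11* was high at D20 (8.24 FPKM) and *Pgr* at D28 (5.55 FPKM). D16 also held the most genes with a count of the 7 libraries, and the part of that in its values was not tested.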

How the results depend on the processing

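The count of called genes was 0 with limma-voom and stayed 0 with the edgeR quasi-likelihood test, limma-trend on log2(FPKM + 0.5) or log2(FPKM + 0.1), sample quality weights, no TMM, other filters, an adjusted p of at most 0.05 and each library left out (0 to 0). DESeq2 called 4, and a fit of all 28 mTEC samples called 1 gene, *Mto1*, lower in late mTECs on the fitted log2 scale although its mean was 8.83 FPKM in NPC and 9.4 in late mTECs. It was at 8.48, 11.7 and 6.31 FPKM in NPC and 8.15, 0, 23.6 and 5.85 FPKM from D16 to D28, with D20 at 0, and was chosen after its values were seen. Genes at an unadjusted p under 0.05 were 1019, ranged from 470 (without NPC 2) to 1628 (without NPC 3) with 1 library left out, and were 344 with edgeR, 2896 in the fit of all 28 samples, 1821 without NPC 3 and D16 and 1432 with an indicator for both, settings chosen after seeing the data. For the contrast with cTECs DESeq2 called 11 genes. With time point and title number as a replicate block limma-voom called 0 genes, with 524 at an unadjusted p under 0.05. The block correlation was 0.059, and the 6 pairs of cTEC and mTEC libraries with the same time point and number had correlations of -0.17 to 0.33, 1 of them above 0.1. The labels do not tie a pair to 1 mouse, and the numbers were taken not to pair the samples. The difference in genes detected was 1199 under the main rule and 651 to 1036 under other detection rules. It was 64 to 3160 with 1 library left out and 2108 without NPC 3 and D16. Of the named genes, those whose log2 fold change turned sign were *Cd40* (-0.03 with edgeR, -0.04 with DESeq2, -0.17 with quality weights, -0.03 without NPC 3 and D16, and -0.24 to 0.18 with 1 library left out), *Aire* (-0.16 with quality weights, -0.08 to 0.86), *Foxn1* (-0.59 to 0.05), *Chat* (-0.21 to 4.48), *Dclk1* (-0.03 to 0.49), *Spdef* (-0.27 to 3.90) and *Hp* (-0.37 to 5.35), the ranges with 1 library left out; the cause was not tested. Of the 25 list medians, 13 turned sign under at least 1 of 19 alternatives: steroid genes under 9, proliferation and B cell under 4 each, keratins under 3, MHC class II and erythroid under 2 each, and MHC class I, chemokines, tuft, cornified, interferon, macrophage and endothelial under 1 each. *Gm20521* was past the threshold with DESeq2 (adjusted p = 1.37e-05, against 1 at most in the others). In all, 1652 of the values of single genes and lists kept their direction and side of the threshold or moved within their spread, and 60 moved further. The median standard error of 0.48 on the log2 scale, against 0.29 for genes with a mean of at least 10 FPKM, is the limit on what single genes could show.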
